A study of Mus musculus with 20 samples.

Results

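Cyclin-dependent kinase inhibitors and targets of the tumour suppressor p53 were followed in mouse neocortex with age and with dietary vitamin E. The set holds 10 genes, taken by name from the array annotation: Cdkn1a, Cdkn1b, Cdkn1c, Cdkn2a, Cdkn2b, Cdkn2c, Cdkn2d, Sesn1, Ccng1 and Mdm2. They lie on 19 of the 45037 probe sets tested, and all 19 are described, of 18193 named genes on the array. No probe set that names several genes holds a member.

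The arrays came from 20 male B6C3F1 mice, first-generation hybrids of C57BL/6 and C3H parents housed singly, with 5 mice a group and 1 array a mouse. Mixture mice were 30 months old and had eaten a diet with 500 mg/kg of α-tocopherol and 500 mg/kg of γ-tocopherol since 15 months of age. α-Tocopherol mice were 30 months old and had eaten a diet with 1000 mg/kg of α-tocopherol since 15 months. On the control diet were old control mice, aged 30 months, and young control mice, aged 5 months. The γ form has 1 methyl group fewer on its ring than the α form. The tissue was dissected neocortex, so a lower signal from fewer cells of a type and from less RNA per cell cannot be told apart.

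The inhibitors stop the cell cycle by holding cyclin-dependent kinases inactive. The Cip/Kip proteins, made from Cdkn1a (p21), Cdkn1b (p27) and Cdkn1c (p57), bind several cyclin-kinase complexes. The INK4 proteins, made from Cdkn2a (p16), Cdkn2b (p15), Cdkn2c (p18) and Cdkn2d (p19), bind the cyclin D kinases. Cdkn2a also encodes Arf, which protects p53 from Mdm2, the ubiquitin ligase that marks p53 for destruction. p53 switches on Cdkn1a, Ccng1 (cyclin G1), Sesn1 (sestrin 1, a stress-induced inhibitor of growth signalling) and Mdm2 itself. Cdkn2a and Cdkn1a are widely used as markers of cellular senescence, and most neurons of adult cortex no longer divide.

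Cdkn1a and Ccng1, both known p53 targets, carry a sequence close to the p53 response element just before a RefSeq start, and these stretches are shown because p53 acts through such elements. The consensus searched was the p53 response element, a pair of adjacent decamers, on both strands with at most 1 mismatch. Of 32851 windows from 250 bases before to 50 after a start, 29 held a match, which is 0.0883%. Of 13 windows for 9 members, all but Cdkn1c, 2 did. Capitals mark the match, and both sequences run 5′ to 3′ on the gene's strand in assembly GRCm38.p6, from RefSeq.
Cdkn1a, chr17:29090729-29090978, plus strand: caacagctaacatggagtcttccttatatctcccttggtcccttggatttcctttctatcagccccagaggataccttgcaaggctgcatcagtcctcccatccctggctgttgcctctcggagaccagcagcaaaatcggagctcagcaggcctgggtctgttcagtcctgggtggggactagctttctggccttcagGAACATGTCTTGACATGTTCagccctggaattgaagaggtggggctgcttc
Ccng1, chr11:40755287-40755536, minus strand: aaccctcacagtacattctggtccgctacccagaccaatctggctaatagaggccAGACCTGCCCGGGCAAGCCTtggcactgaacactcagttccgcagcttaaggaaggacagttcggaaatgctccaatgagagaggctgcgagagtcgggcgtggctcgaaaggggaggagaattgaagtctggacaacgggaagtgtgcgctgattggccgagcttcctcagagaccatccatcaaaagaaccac
The match ended 31 bases before the start in Cdkn1a and 175 bases before it in Ccng1, with 1 mismatch each. Cdkn1a has another RefSeq start downstream, and its window (chr17:29093519-29093768 before the start) held no match. Such a match is a sequence description and says nothing of binding in these mice.

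Signals are linear intensities scaled so that every array has the same trimmed mean of 1000. Group means are means of log2(signal + 16) turned back into signal, and differences are on that log2 scale with the limma standard error (SE, n = 5 per group). Adjusted p-values are limma's, by Benjamini-Hochberg over all 45037 probe sets, and the threshold is 0.05. Of the 19 probe sets, 13 exceeded a signal of 184, the limit for the brightest 60% of probe sets, and the other 6 are called dim. Signals are not compared between probe sets.

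With age, 3 of the 19 probe sets passed the threshold, against 10.8% of all probe sets. Ccng1 rose on 1 of its 3 probe sets, and Cdkn1b and Sesn1 each fell on 1 probe set. No Cdkn1a, Cdkn2 or Mdm2 probe set passed. The share of members called, 15.8%, is close to the background, so the set as a whole did not stand out from other genes. The median difference between old and young control was -0.11 over the 19 probe sets and -0.08 over all probe sets. Unadjusted p was under 0.05 for 5 members, 26.3%, against 26.0% of all probe sets. Groups did not overlap for 4 members, against 10.2% of all.

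**Figure D1:**
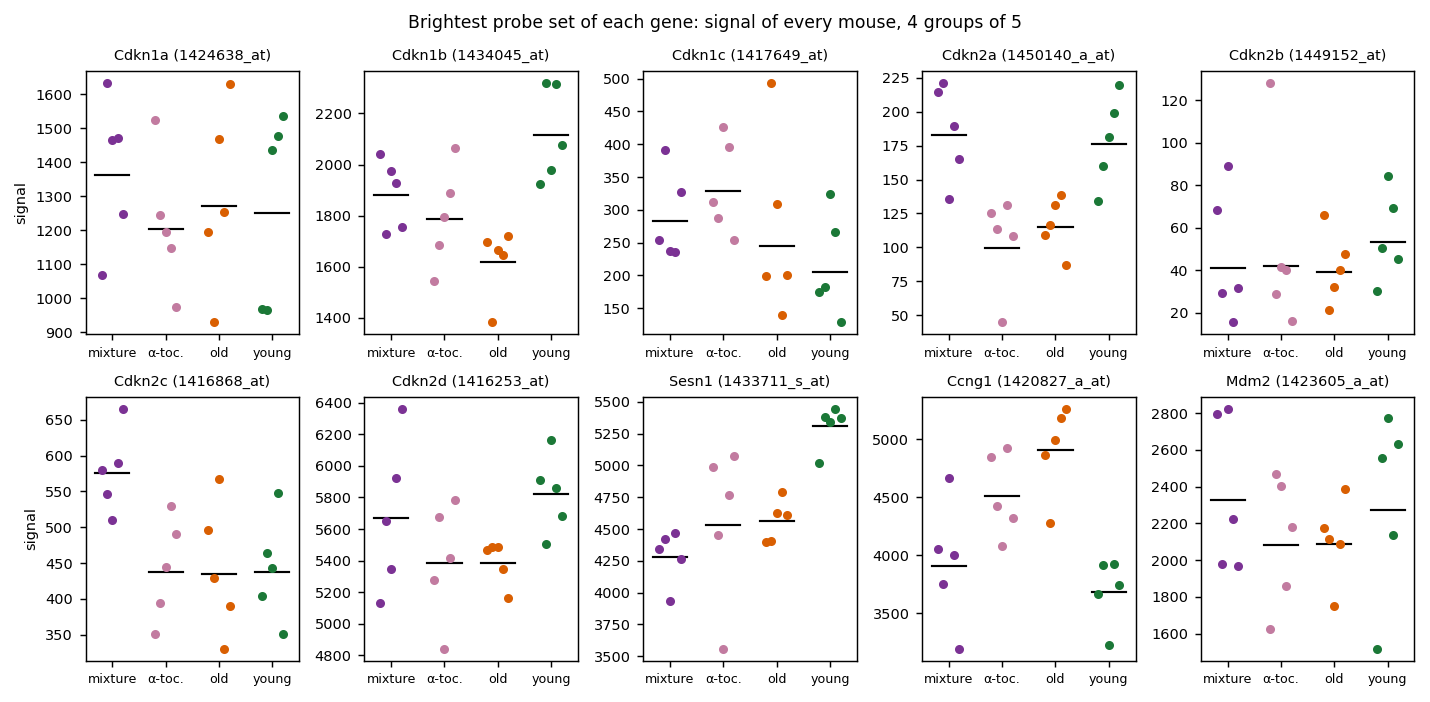
Signal (vertical axes, linear, not starting at 0) of the brightest probe set of each of the 10 genes in every mouse, with the mixture, α-tocopherol, old control and young control groups from left to right. Each point is 1 mouse and each bar the mean of log2(signal + 16) turned back into signal. Old control mice lie wholly above young control mice for Ccng1 and wholly below them for Cdkn1b, Sesn1 and Cdkn2d.

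Cdkn1b was the Cip/Kip gene that differed with age. Its p27 protein keeps cells that have left the cycle from re-entering it. On the brighter probe set (1434045_at) the signals were 2042.9, 1728.1, 1973.9, 1928.3 and 1755.2 in mixture mice and 1545.2, 1684.3, 1796.5, 1889.2 and 2066.1 in α-tocopherol mice. They were 1695.7, 1382.4, 1665.5, 1646.7 and 1722.5 in old control mice, against 1923.2, 2320.6, 1977.7, 2315.6 and 2078.2 in young control mice. Every old control mouse lay below every young control mouse. Cdkn1b fell in old control mice by a log2 difference of -0.38 ± 0.08 (adjusted p = 0.0059), to a mean signal of 1618 against 2117 in young control mice. The dim Cdkn1b probe set (1419497_at) had the same direction, -0.52 ± 0.28, at an adjusted p of 0.235.

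Both supplement groups had Cdkn1b means between those of old and young control mice. All mixture mice lay above all old control mice on the brighter probe set, a difference of 0.22 ± 0.08 that did not pass the threshold (adjusted p = 0.215). The difference was 0.14 ± 0.08 between α-tocopherol and old control mice (adjusted p = 0.903). The mean signals were 1882 in mixture, 1788 in α-tocopherol, 1618 in old control and 2117 in young control mice, and of all pairs of groups only the lowest, old control, and the highest, young control, differed past the threshold. Leaving out any 1 of the 20 mice kept the age call, with the difference between -0.42 and -0.33. The call was lost with array medians set equal (-0.25, adjusted p = 0.0844) and when each array's β-actin ratio entered the model (-0.36 ± 0.11, adjusted p = 0.0654), though the difference was then about as large.

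Cdkn1a, the p21 gene and the best known transcriptional target of p53, had nearly the same level in all groups. Its bright probe set (1424638_at) read 1068.9, 1634.2, 1465.2, 1469.8 and 1248.8 in mixture mice and 1523.0, 1245.2, 1193.6, 1148.7 and 974.3 in α-tocopherol mice. The signals were 1193.3, 928.3, 1467.9, 1253.7 and 1631.0 in old control mice, against 969.0, 964.0, 1436.8, 1478.4 and 1535.4 in young control mice. All groups overlapped. The difference between old and young control mice was 0.02 ± 0.16 (adjusted p = 0.944), and its 95% interval ran from -0.31 to 0.36, that is from 0.808 to 1.28 times the young level. The dim Cdkn1a probe set (1421679_a_at) was between 21.1 and 101.5 in all mice but 1 α-tocopherol mouse, which read 216.1.

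Cdkn1c, the imprinted gene of p57, was only a little above the limit for dim probe sets. Its signal ran from 235.5 to 391.6 in mixture, 254.1 to 427.0 in α-tocopherol, 139.8 to 493.9 in old control and 128.3 to 324.7 in young control mice. The spread within old control mice alone was more than the differences between group means, and the age difference was 0.24 ± 0.28 (adjusted p = 0.629).

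Among the INK4 genes, Cdkn2a was dim and did not pass the threshold in any comparison. Its only probe set (1450140_a_at; the ending marks a probe set that reads several transcripts of 1 gene) cannot tell p16 from Arf transcripts. The signals were 214.4, 221.4, 136.0, 189.5 and 165.2 in mixture mice and 125.1, 113.8, 44.7, 131.6 and 108.5 in α-tocopherol mice. They were 109.4, 116.5, 131.5, 138.8 and 87.1 in old control mice, against 134.3, 160.0, 181.4, 199.2 and 219.4 in young control mice. Mixture mice and young control mice covered almost the same range, and α-tocopherol and old control mice another, lower one.

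The Cdkn2a difference was -0.55 ± 0.24 between old and young control (adjusted p = 0.146) and -0.74 ± 0.24 between α-tocopherol and young control mice (adjusted p = 0.0529). All mixture mice lay above all α-tocopherol mice, at 0.78 ± 0.24 with a 95% interval from 0.29 to 1.28, but the adjusted p was 0.422. No probe set of the array passed the threshold in that comparison, where 1.01% of all probe sets had groups that did not overlap. The mean signals were 183 in mixture, 99.4 in α-tocopherol, 115 in old control and 176.5 in young control mice, and no neighbours in the order of these levels differed past the threshold. The α-tocopherol against young control difference passed the threshold with a pseudocount of 64 (adjusted p = 0.0425), without the intensity trend (adjusted p = 0.0369) and when the β-actin ratio entered the model (adjusted p = 0.0352).

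Cdkn2b, the neighbour of Cdkn2a on chromosome 4, was also dim. Its signal ran from 15.3 to 89.0 in mixture, 15.9 to 128.4 in α-tocopherol, 21.1 to 65.9 in old control and 30.1 to 84.5 in young control mice. The age difference was -0.33 ± 0.37, with an interval from -1.10 to 0.45, that is from 0.466 to 1.36 times the young level.

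Cdkn2c (p18) was level with age and had its highest signals in mixture mice. They read 579.9, 546.4, 510.6, 589.9 and 665.4 in mixture mice and 350.9, 394.2, 443.9, 530.2 and 490.5 in α-tocopherol mice. The signals were 496.6, 429.4, 566.9, 330.2 and 390.6 in old control mice, against 404.2, 464.3, 443.4, 548.3 and 350.4 in young control mice. The difference was 0.39 ± 0.15 for mixture against old control (adjusted p = 0.202) and 0.39 ± 0.15 for mixture against α-tocopherol mice (adjusted p = 0.591), with overlap in both. Old and young control mice differed by -0.01 ± 0.15.

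Cdkn2d (p19 of the INK4 family) was the INK4 gene with the most uniform signal. It ran from 5134.2 to 6361.4 in mixture, 4841.0 to 5781.6 in α-tocopherol, 5160.7 to 5488.1 in old control and 5505.9 to 6163.1 in young control mice. All old control mice lay below all young control mice, but the difference was only -0.11 ± 0.06 (adjusted p = 0.266), with an interval from 0.847 to 1.01 times the young level.

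Sesn1 was lower in old control than in young control mice on each of its 4 probe sets and passed the threshold on 1. Sestrin 1 restrains growth signalling under stress. The probe set that passed (1454699_at) read 2375.6, 1925.9, 1949.0, 2345.6 and 2560.0 in mixture mice and 1948.3, 2288.2, 1802.5, 1743.2 and 2432.1 in α-tocopherol mice. It read 1999.7, 2002.0, 1753.0, 2242.8 and 1851.1 in old control mice, against 2237.7, 2628.5, 2420.0, 2574.6 and 2781.2 in young control mice. The old and young control groups overlapped by a single pair of mice. On this probe set Sesn1 fell, with a log2 difference of -0.36 ± 0.10 (adjusted p = 0.0244).

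The brightest Sesn1 probe set (1433711_s_at; the ending marks a probe set that can read related transcripts) showed the clearer separation and a smaller difference. In the annotation it rests on the same sequence as 1454699_at. Its signals were 4340.1, 4419.8, 3937.4, 4465.1 and 4267.5 in mixture mice and 4983.8, 4453.1, 3558.5, 4771.1 and 5076.2 in α-tocopherol mice. They were 4400.6, 4408.3, 4623.3, 4789.6 and 4609.1 in old control mice, against 5018.9, 5383.1, 5343.5, 5444.3 and 5375.4 in young control mice. All old control and all mixture mice lay below all young control mice. The difference was -0.22 ± 0.07 for old against young control (adjusted p = 0.0631) and -0.31 ± 0.07 for mixture against young control (adjusted p = 0.0119).

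The α-tocopherol against young control difference of the brightest Sesn1 probe set was -0.23 ± 0.07 (adjusted p = 0.0541). The old groups share these young control mice, so their differences from them are not independent. Sesn1 on the probe set that passed with age also differed between α-tocopherol and young control mice (-0.31 ± 0.10, adjusted p = 0.0487), but not past the threshold between mixture and young control mice (-0.18 ± 0.10, adjusted p = 0.27). The α-tocopherol call was lost without any 1 of 12 of the 20 mice (adjusted p up to 0.124), with array medians set equal (-0.20, adjusted p = 0.25), without the intensity trend (adjusted p = 0.0872), with those groups alone (adjusted p = 0.0607) and when the β-actin ratio entered the model (-0.29, adjusted p = 0.0676). The remaining Sesn1 probe sets had age differences of -0.34 ± 0.19 (1438931_s_at) and, on the dim 1444376_at, -0.10 ± 0.22, neither past the threshold. No Sesn1 probe set differed past the threshold between any pair of old groups.

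The Sesn1 age call on 1454699_at was lost without young control mouse 2 or 5 and without old control mouse 3 or 5 (adjusted p up to 0.0635). It was also lost with array medians set equal (-0.23, adjusted p = 0.192), without the intensity trend (-0.36, adjusted p = 0.0514) and when the β-actin ratio entered the model (-0.27 ± 0.12, adjusted p = 0.229). The brightest probe set also passed with age under quantile (adjusted p = 0.0284) or cyclic loess normalization (adjusted p = 0.0229). It did so too in the brightest 60% of probe sets (adjusted p = 0.047) and with 1 probe set per gene (adjusted p = 0.0379). With the old and young control groups alone (adjusted p = 0.0187) and without α-tocopherol mouse 3 (adjusted p = 0.0116) it passed as well.

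**Figure D2:**
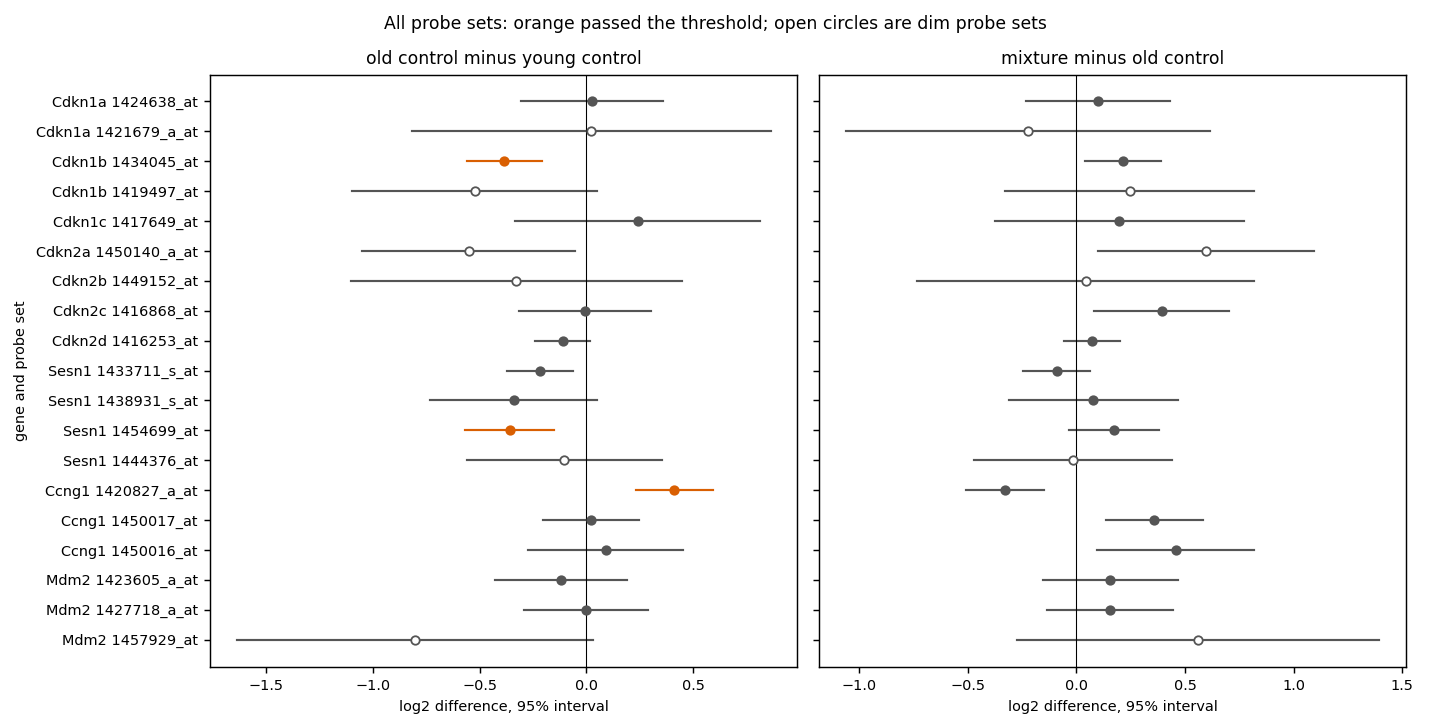
Log2 difference (horizontal axes) with its 95% interval for all 19 probe sets, old control minus young control on the left and mixture minus old control on the right. Orange marks the 3 probe sets past the threshold, all on the left, and open circles the 6 dim probe sets.

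Ccng1, an early p53 target whose cyclin G1 works with Mdm2, gave the smallest p of the set with age, but only 1 of its 3 probe sets passed the threshold. The brightest probe set (1420827_a_at) read 4057.8, 3749.5, 4667.4, 4000.9 and 3194.1 in mixture mice and 4846.0, 4429.2, 4075.8, 4920.8 and 4321.0 in α-tocopherol mice. It read 4864.3, 4278.5, 4997.4, 5185.6 and 5261.8 in old control mice, against 3669.7, 3918.0, 3223.1, 3922.2 and 3743.5 in young control mice. Every old control and every α-tocopherol mouse lay above every young control mouse. Ccng1 rose 1.33-fold on this probe set in old control mice (log2 difference 0.41 ± 0.09 SE, adjusted p = 0.0045) and 1.22-fold in α-tocopherol mice against young control (0.29 ± 0.09, adjusted p = 0.0364).

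The mean signals on this probe set were 3905 in mixture, 4507 in α-tocopherol, 4905 in old control and 3686 in young control mice. Mixture mice were near young control mice (0.08 ± 0.09, adjusted p = 0.61) and lower than old control mice by a difference of -0.33 ± 0.09 that just missed the threshold (adjusted p = 0.0657). That difference passed with the dimmest 40% of probe sets left out of the adjustment (adjusted p = 0.041), with 1 probe set per gene (adjusted p = 0.0327), and without old control mouse 2 (adjusted p = 0.0448) or mixture mouse 3 (adjusted p = 0.0372). It passed in no other alternative. Those included quantile and cyclic loess normalization, array medians set equal, no intensity trend, those groups alone and the β-actin ratio in the model. The age call held without any 1 of the mice, from 0.36 to 0.46 on the log2 scale.

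The other Ccng1 probe sets were level with age and highest in mixture mice. On 1450017_at the signals were 1883.6, 1616.5, 1615.3, 1840.3 and 2298.3 in mixture mice and 1455.3, 1841.4, 1704.3, 1482.0 and 1933.0 in α-tocopherol mice. They were 1322.9, 1526.8, 1274.1, 1493.2 and 1543.9 in old control mice, against 1444.0, 1665.7, 1518.8, 1222.4 and 1236.4 in young control mice. All mixture mice lay above all old control mice, at 0.36 ± 0.11 (adjusted p = 0.101). Old and young control mice differed by 0.02 ± 0.11. Mixture against young control mice passed the threshold on this probe set (0.38 ± 0.11, adjusted p = 0.0302). That call was lost without young control mouse 4 or 5 or mixture mouse 1 or 5 (0.30 to 0.37, adjusted p up to 0.0862), without the intensity trend (adjusted p = 0.0586) and with those groups alone (adjusted p = 0.0576).

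On the third Ccng1 probe set (1450016_at) the signals were 1508.0, 1470.4, 1428.1, 1514.9 and 2310.4 in mixture mice and 1047.1, 1513.6, 1296.0, 1253.6 and 1477.1 in α-tocopherol mice. They were 887.4, 1224.9, 1193.1, 1311.4 and 1316.8 in old control mice, against 1102.1, 1589.9, 1269.1, 672.3 and 1090.9 in young control mice. Here too all mixture mice exceeded all old control mice (0.46 ± 0.17, adjusted p = 0.204), and the age difference was 0.09 ± 0.17.

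All 3 Ccng1 probe sets carry the same sequence accession in the annotation, and their disagreement was tested within each mouse. The log2 ratio of the brightest to the third probe set averaged 1.26 (SD 0.467) in the 5 mixture mice and 2.05 (SD 0.237) in the 5 old control mice, without overlap (exact two-sided permutation p = 0.00794, the smallest that 5 against 5 mice can give). The ratio to 1450017_at averaged 1.08 (SD 0.381) in mixture and 1.77 (SD 0.181) in old control mice (exact permutation p = 0.0159). Over the 28 comparisons of such ratios made for Ccng1, Sesn1 and Mdm2 both had an adjusted p of 0.222, as did the lowest of all. With 28 tests, a single ratio at the smallest permutation p cannot pass the threshold. Between old and young control mice these ratios overlapped. The ratio to the third probe set averaged 2.05 against 1.73 (exact permutation p = 0.222, 0.479 adjusted). That to 1450017_at averaged 1.77 against 1.38 (exact permutation p = 0.0317, 0.222 adjusted). The direction of Ccng1 with the mixture differed between probe sets, and none of its 3 differences from old control mice passed the threshold over all probe sets.

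The 3′ over 5′ signal of the β-actin control is a measure of how complete the labelled RNA was. Its mean was highest in old control mice, as was that of the brightest Ccng1 probe set. The ratio averaged 1.43 ± 0.14 in mixture, 1.67 ± 0.39 in α-tocopherol, 2.04 ± 0.34 in old control and 1.52 ± 0.14 in young control mice (± SD over 5 mice). With its log2 as a covariate the age difference of Ccng1 was 0.30 ± 0.10 and no longer passed (adjusted p = 0.0998), and 0 of the 19 members passed with age. Between α-tocopherol and young control mice the call of this probe set was kept with the covariate. Over all probe sets the age calls then numbered 1517, against 4875 without the covariate. Those between α-tocopherol and young control mice numbered 4776, against 4515. The 5 genes whose signal over the 20 arrays was most like that of this Ccng1 probe set, among 23450 probe sets, were Prelid1 (Pearson r 0.921), Preb (0.915), Grk6 (0.913), Cux2 (0.908) and Fdft1 (0.908). All 5 were higher in old than young control mice, by 0.31 to 0.62, and lower in mixture than old control mice, by -0.49 to -0.26. They were chosen for likeness over these same arrays, so these directions follow from the choice and lend no support to those of Ccng1. These correlations are descriptions, and their points share array scaling and RNA quality.

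**Figure D3:**
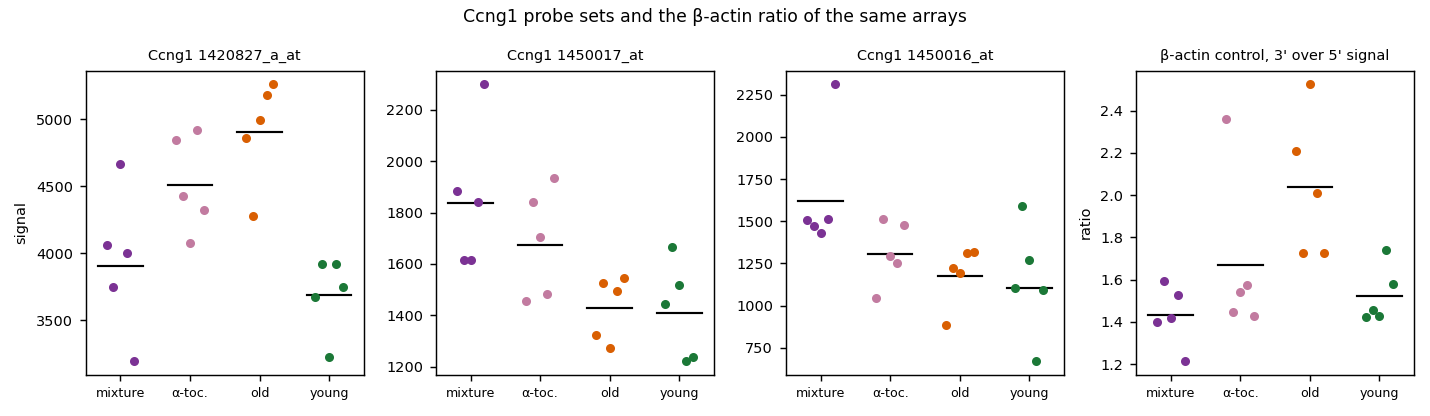
Signal (linear axes, not starting at 0) of the 3 Ccng1 probe sets in every mouse and, at the right, the β-actin 3′ over 5′ ratio of the same arrays, with the mixture, α-tocopherol, old control and young control groups from left to right. Bars are group means, back-transformed from log2 for signals. The brightest probe set and the ratio are highest in old control mice, while the other probe sets are highest in mixture mice.

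Mdm2, the ubiquitin ligase that p53 induces and that in turn removes p53, did not pass the threshold on any probe set in any comparison. Its brightest probe set (1423605_a_at) ran from 1970.0 to 2822.5 in mixture, 1625.5 to 2470.9 in α-tocopherol, 1748.3 to 2384.5 in old control and 1518.3 to 2770.7 in young control mice. The age difference was -0.12 ± 0.15 on it and -0.00 ± 0.14 on 1427718_a_at. On the dim 1457929_at it was -0.80 ± 0.40 (adjusted p = 0.21), with signals from 34.4 to 230.9 in old control, against 204.7 to 307.0 in young control mice. On the bright probe sets the 95% intervals ran from 0.742 to 1.14 and from 0.816 to 1.22 times the young level.

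The diets were then compared for what each changed in old mice. None of the 19 members passed the threshold between mixture and old control mice, where 1.09% of all probe sets did. Unadjusted p was under 0.05 for 6 of 19, 31.6%, against 14.8% of all probe sets, and these were the brighter Cdkn1b, the Cdkn2a, the Cdkn2c and all 3 Ccng1 probe sets. Of the 19 differences 15 were positive, with a median of 0.16 against 0.04 over all probe sets. Groups did not overlap for 3 members, 1 of Cdkn1b and 2 of Ccng1, against 3.93% of all probe sets. These values describe chosen genes whose probe sets share mice and, for Ccng1 and for 1433711_s_at and 1454699_at of Sesn1, a sequence.

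None of the members passed between α-tocopherol and old control mice either, where 0 of 45037 probe sets did (0% called by limma; 2506, or 5.56%, had an unadjusted p under 0.05). Only 1450017_at of Ccng1 had an unadjusted p under 0.05 (0.23 ± 0.11), and 0 members had groups without overlap, against 0.719% of all. The median member difference was 0.0063, against 0.0113 over all probe sets. The narrowest intervals were those of Cdkn2d, from 0.915 to 1.09 times the old control level, and of the brightest Sesn1 probe set, from 0.892 to 1.11 times.

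The mixture and α-tocopherol diets were supplemented with the same total of tocopherol per kg, and the comparison of these mice bears on γ-tocopherol replacing part of the α form. No member passed, where again 0 of 45037 probe sets did (0% called by limma; 3211, or 7.13%, had an unadjusted p under 0.05). The members with an unadjusted p under 0.05 were Cdkn2a (0.78 ± 0.24), Cdkn2c (0.39 ± 0.15) and the brightest Ccng1 probe set (-0.21 ± 0.09). For Cdkn1b the interval of the difference ran from -0.10 to 0.25 and for Cdkn1a from -0.16 to 0.51 on the bright probe sets. A missed threshold does not show that the diets act alike.

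Against young control mice, 2 of 19 members passed in α-tocopherol mice (10.0% of all probe sets) and 2 of 19 in mixture mice (9.25% of all). In α-tocopherol mice these were the brightest Ccng1 probe set, higher (4.86% of all), and Sesn1 1454699_at, lower (5.16% of all), and groups did not overlap for 2 members, Ccng1 and Cdkn2a, against 9.83% of all. In mixture mice they were Ccng1 1450017_at, higher (4.91% of all), and the brightest Sesn1 probe set, lower (4.34% of all), and groups did not overlap for 1 member, that Sesn1 probe set, against 9.05% of all. The Ccng1 and Sesn1 probe sets called in α-tocopherol mice were those called in old control mice, and the mixture group's were different ones. This is a difference in which calls passed, and no member passed between mixture and α-tocopherol mice (lowest limma adjusted p 0.422). The Ccng1 call in α-tocopherol mice was lost without young control mouse 1, 3 or 5 or α-tocopherol mouse 1, 2 or 4 (0.24 to 0.30, adjusted p up to 0.0998), with cyclic loess normalization (0.26, adjusted p = 0.0522) and without the intensity trend (adjusted p = 0.0762). The Sesn1 call in mixture mice held without any 1 mouse and was lost with array medians set equal (-0.25, adjusted p = 0.105). A limma F test over the 4 groups passed for 4 members, against 11.4% of all probe sets. They were the brighter Cdkn1b probe set (adjusted p = 0.0227), the brightest Sesn1 probe set (0.0338), and Ccng1 on 1420827_a_at (0.0093) and 1450017_at (0.045).

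Genes around these members were taken from 6 lists, each gene by its brightest probe set. With age 10 of the 93 measured were called, 10.8%, against 10.8% of all probe sets, dim ones included. With only the brightest probe set of each gene tested, and dim ones left out, 22.8% of 13351 were called with age. Between mixture and old control mice 4.52% were. The shares of all probe sets given beside these lists are therefore not like for like. Of 21 measured genes of p53 and its pathway, 1 fell with age and none rose, where 5.66% of all probe sets were called lower and 5.17% higher. It was Btg2, an antiproliferative p53 target that neuronal activity also induces, with a mean signal of 1005 in old control and 2166 in young control mice (-1.10 ± 0.21, adjusted p = 0.00251). The list's median difference was -0.04. Trp53 itself was not analysed here. Of 8 other growth arrest genes linked to stress 1 fell, Gadd45g, a partner of stress kinases (-0.49 ± 0.12, adjusted p = 0.00914).

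Among 22 cyclins, kinases and members of the Rb and E2F families 1 rose and 2 fell with age. Ccnd1, cyclin D1, rose to 2596 in old control mice, against 2114 in young control mice (0.29 ± 0.08, adjusted p = 0.016). E2f5, an E2F factor of quiescent cells, fell to 993 against 1928 (-0.95 ± 0.12, adjusted p = 0.00014), and Ccne2, cyclin E2, fell to 186 against 308 (-0.68 ± 0.18, adjusted p = 0.0193). In mixture against old control mice Ccnd3, cyclin D3, was higher (0.33 ± 0.07, adjusted p = 0.0373), and so was E2f5 (0.51 ± 0.12, adjusted p = 0.049), where 0.364% of all probe sets were called higher. Of 31 alternatives, including leaving out each mouse, these passed in 16 for Ccnd3 and 9 for E2f5, whereas the fall of E2f5 with age passed in all 31. When the β-actin ratio entered the model the age calls of Btg2 (-0.87 ± 0.26, adjusted p = 0.0619), Ccnd1 (0.23 ± 0.09, adjusted p = 0.162) and Ccne2 (-0.54 ± 0.23, adjusted p = 0.185) were lost. The Ccne2 call was also lost with quantile (-0.54, adjusted p = 0.0545) and cyclic loess normalization (-0.53, adjusted p = 0.0622), and that of Gadd45g with array medians set equal (-0.36 ± 0.13, adjusted p = 0.0714).

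Of 12 regulators of the Cdkn2a locus, 2 fell with age, where 5.66% of all probe sets were called lower. Both are Polycomb genes, as are most of the list, and Polycomb complexes hold that locus silent. The 2 were Eed (-0.29 ± 0.09, adjusted p = 0.0395) and Cbx8 (-0.49 ± 0.15, adjusted p = 0.0405), each past the threshold in 19 of 31 alternatives. Both calls were lost with quantile and cyclic loess normalization, with array medians set equal and with the β-actin ratio in the model. Of 9 genes for the turnover or transcription of Cip/Kip proteins, Foxo4, a factor that can induce Cdkn1b, rose (0.57 ± 0.15, adjusted p = 0.0205) and Cul4a, a ubiquitin ligase scaffold, fell (-0.34 ± 0.10, adjusted p = 0.0247). Foxo4 was not called without young control mouse 1 or old control mouse 1, or with the β-actin ratio in the model (0.50 ± 0.19, adjusted p = 0.147). Cul4a was not called without young control mouse 2 or old control mouse 3 or 5, with array medians set equal (-0.21 ± 0.11, adjusted p = 0.227) or with the β-actin ratio in the model (-0.23 ± 0.11, adjusted p = 0.277). Of 21 senescence-associated genes only Igfbp5, an IGF binding protein, passed, with a mean signal of 4317 in old control and 2209 in young control mice (0.96 ± 0.13, adjusted p = 0.00014), and it did so in all 31 alternatives. Of these 21 genes 8 were dim. In no list did a gene pass between α-tocopherol and old control mice or between the mixture and α-tocopherol.

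**Figure D4:**
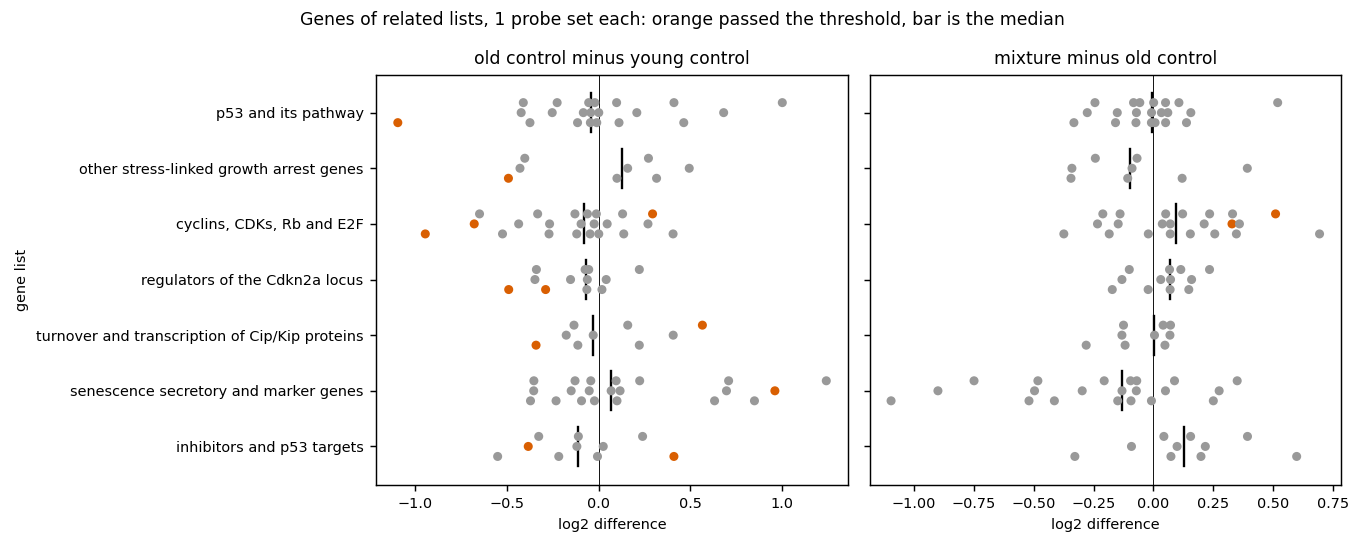
Log2 difference (horizontal axes) of every measured gene of 6 related lists and, in the lowest row, of the brightest probe set of each of the 10 members, for old control minus young control on the left and mixture minus old control on the right. Orange points passed the threshold and black bars are list medians. Most genes of every list are grey, and on the left the orange points farthest from 0 are Btg2 and E2f5, both lower, and Igfbp5, higher.

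Other cell types and array measures moved with age beside these results, and their part in them was not tested. Of 7 astrocyte markers 7 rose, with a summed signal from 82325 to 97547 in old control and 62382 to 65158 in young control mice. Of 8 microglia markers 6 rose and 1 fell (26827 to 30586 in old control, 16914 to 18292 in young control), of 8 neuron markers 4 rose (129263 to 149353, against 117832 to 122588) and of 7 oligodendrocyte markers 3 rose (79789 to 97346, against 61495 to 73898). Among 6 oligodendrocyte precursor markers 1 rose (13466 to 14786, against 12057 to 12600), with a list median of -0.11. Over all probe sets, 5.17% were called higher with age and 5.66% lower. Markers were read on the brightest probe set of each gene. Of 13351 such probe sets, dim ones left out, 22.8% were called with age in either direction. Between mixture and old control mice 2 neuron markers were lower (110331 to 124343 summed in mixture, 129263 to 149353 in old control). So was 1 oligodendrocyte marker (66553 to 78896, against 79789 to 97346), where 0.728% of all probe sets were called lower. One of the 8 microglia markers, 1 in all, was higher (21075 to 35946, against 26827 to 30586), where 0.364% of all probe sets were. It was the only 1 of the 8 with a positive difference, and the list's median was -0.04. No marker was listed at 0. Choroid plexus markers, from tissue beside the neocortex, summed to between 10185 and 52186 in old control mice and 28373 and 42352 in young control mice.

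The array median was 292 ± 12 in old control and 321 ± 6 in young control mice (± SD over 5 mice), with an exact permutation p of 0.00794 (0.0159 adjusted over 4 array measures). With array medians set equal, the median age difference of all probe sets moved to 0.05 from -0.08, and 82.7% of the age calls were higher, against 47.7% as deposited. On that scale 1 of the 19 members passed with age, the brightest Ccng1 probe set, and 10.3% of the calls between mixture and old control mice were higher, against 33.3% as deposited. With cyclic loess normalization that share was 44.9%. The β-actin ratio differed with age (exact permutation p 0.0238, or 0.0317 adjusted) and between mixture and old control mice (exact permutation p 0.00794, or 0.0106 adjusted). The 18S RNA control signal averaged 1648 in old control, 620 in young control and 910 in mixture mice. Its exact permutation p was 0.00794 with age (0.0159 adjusted) and 0.00794 for mixture against old control (0.0106 adjusted). The Gapdh 3′ over 5′ ratio was also higher in old control mice than in young control (exact permutation p 0.0317 adjusted) and mixture mice (0.0106 adjusted).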

How the data were processed

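The authors deposited 1 linear intensity per probe set and array, for 20 arrays; the submitters' processing notes name GCOS. How it corrected background and summarised probes is not stated in the labels. Each column's 2% trimmed mean was 1000, so the authors had scaled the intensity values before they deposited them. The 64 Affymetrix control probe sets were left out. Of the other 45037, 34945 name 1 gene, 932 several and 9160 none; 34741 symbols were updated through gene identifiers to the RefSeq table of GRCm38.p6 and 204 kept. Values were tested as log2(signal + 16), which understates changes of dim genes, with limma 3.58.1 in R 4.3.3 (lmFit, contrasts, eBayes with an intensity trend, two-sided) over all 20 arrays, checked on simulated data. Each mouse had its own array, so p-values measure the spread between mice; the number of arrays limits precision. Exact permutation tests served single values. Members and lists were chosen with earlier results of these data known. From each list, up to 4 genes with the smallest p past the threshold with age and up to 2 per diet comparison are named, beside every member and the 5 genes most like the leading member probe set. Alternatives were the pseudocount, scaling, filter, gene summary, variance model, samples fitted, replicate block, β-actin ratio and leaving out each mouse. No genome was used; RefSeq promoter windows gave the sequences.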

Additional observations from a re-analysis of the deposited data

Results flagged for a closer look

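Each of the 19 probe sets was examined in each group of 5 mice, and in 7 of 76 groups 1 mouse stood apart, its gap to the nearest other mouse exceeding 0.71 of the group's range; chance gives about 1 group in 20. In mixture mice, Ccng1 on 1450016_at was 2310.4 in mouse 5 and 1428.1 to 1514.9 in the others. In α-tocopherol mice, the dim Cdkn1a probe set was 216.1 in mouse 1 and 21.7 to 30.8 in the others, and Cdkn2a was 44.7 in mouse 3 and 108.5 to 131.6 in the others. In old control mice, Cdkn1b on 1434045_at was 1382.4 in mouse 2 and 1646.7 to 1722.5 in the others, Ccng1 on 1450016_at was 887.4 in mouse 1 and 1193.1 to 1316.8 in the others, and the dim Mdm2 probe set was 34.4 in mouse 3 and 147.2 to 230.9 in the others. In young control mice, Sesn1 on 1433711_s_at was 5018.9 in mouse 1 and 5343.5 to 5444.3 in the others.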

How the results depend on the processing

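Of 1152 values under 11 alternatives other than leaving out a mouse, 1056 kept direction and call, 15 lost and 23 gained a call, 58 uncalled values turned sign and 0 called values reversed. The age count of 3 members was 1 with array medians set equal and 0 with each array's β-actin ratio in the model (below, the covariate). For mixture against old control it was 1 in the brightest 60% of probe sets and 1 with 1 probe set per gene, against 0. For α-tocopherol against young control it was 1 without the intensity trend, 1 with those groups alone and 4 with the covariate, against 2. For mixture against young control it was 1 with 1 probe set per gene, 1 without the trend and 1 with those groups alone, against 2. The F test gave 2 with medians equal, 2 without the trend and 2 with the covariate, against 4. Leaving out 1 mouse gave 2 to 4 members with age, 0 to 0 for α-tocopherol and 0 to 1 for mixture against old control, 0 to 0 for mixture against α-tocopherol, 0 to 4 for α-tocopherol and 1 to 3 for mixture against young control, and 1 to 5 by the F test. Over all probe sets, calls between mixture and old control numbered 492, but 65 with quantile and 89 with cyclic loess normalization, 9 with those groups alone, 970 in the brightest 60%, 0 without the trend and 0 with the covariate. Age calls numbered 1517 with the covariate, against 4875. The causes were not tested. The sample numbers do not pair the mice: same-numbered arrays correlated at -0.11 to 0.20, and 4 of 20 correlated best with their own number. With the replicate block the member counts were 3 with age, 0 in each diet comparison, 3 each against young control and 5 by the F test. Low signal limits Cdkn2a, Cdkn2b and the other dim probe sets.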
